A study of Mus musculus with 12 samples.

Results

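The small leucine-rich proteoglycans examined here are 9 genes chosen by name, Fmod, Dcn, Bgn, Lum, Ogn, Aspn, Omd, Prelp and Podn, of 55487 Ensembl genes listed in the count table. The rule was a list of names with no threshold on a measured value, although earlier results of these data were known when it was drawn up. All 9 had a count in some library, and 8 passed the filter on low counts, the exception being Lum. The cells were C2C12, an established mouse myoblast line that forms myotubes in culture, differentiated over 5 days in medium holding 2% horse serum. The control group then received medium with 4% horse serum, and the treated group medium with 4% STEM, for 24 h. STEM is a solution of factors secreted by partially differentiated human embryonic stem cells, without the cells themselves. Both groups came from this single line, both had been differentiated in horse serum, and the treated group received no horse serum in its last medium, so addition of STEM and withdrawal of horse serum cannot be told apart. Each group had 6 libraries of ribosomal RNA-depleted total RNA, with numbers 1 to 6 in the horse serum group and 7 to 12 in the STEM group. The labels do not say whether these came from separate cultures, so the p-values measure the spread between these libraries, which may in part be technical.

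Small leucine-rich proteoglycans are secreted proteins whose core is a curved stack of leucine-rich repeats, often carrying chondroitin, dermatan or keratan sulfate chains. They bind collagen fibrils and influence how wide and how regular these become, and several also bind growth factors of the TGF-beta family. In skeletal muscle they lie in the connective tissue around and between the fibers. Decorin (Dcn), biglycan (Bgn) and asporin (Aspn) form one structural class. Fibromodulin (Fmod), lumican (Lum), prolargin (Prelp) and osteomodulin (Omd) form another, and osteoglycin (Ogn) and podocan (Podn) belong to separate classes.

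Total counts ran from 13285472 to 18254882 in the horse serum libraries and from 14909485 to 24536264 in the STEM libraries. Horse serum library 6 stood apart from the other 11. On the first principal component of log2 CPM, that is counts scaled by the effective library size, which held 44.2% of the variance, it lay at 11.2, against -35.5 to -24.6 for the other 5 horse serum libraries and 15.5 to 28.6 for the STEM libraries, and on the second component at -53.3. Values of the members are therefore given with and without it. The 8 myotube markers summed to 6530 CPM in library 6, to between 10717 and 11687 CPM in the other 5 horse serum libraries and to between 9078 and 11249 CPM in the STEM libraries, and each of the 8 was at its lowest control value in library 6. There Myh8, an immature myosin heavy chain, stood at 79.8 CPM against 598 to 775 CPM in the other horse serum libraries, and Ckm, the muscle creatine kinase, at 175 against 434 to 532 CPM. Between the groups 3 of the 8 were called, with Myh8 (-1.25) and Myog (-0.29) lower and Mymk (0.36) higher. Of all tested genes 36.4% were called. Without library 6 these 3 markers kept their direction and call, and Acta1 (-0.25) and Tnnt3 (-0.17) were called lower as well. The part of these markers in the results was not tested. In bulk RNA, fewer cells of a type and less RNA per cell cannot be told apart.

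With STEM, Fmod and Bgn rose, Aspn fell, and the other 5 tested members did not pass the test. Fmod was 4.42-fold and Bgn 1.38-fold higher, while Aspn fell by 0.55 on the log2 scale. A gene was called differentially expressed when edgeR's quasi-likelihood test gave a Benjamini-Hochberg adjusted p of 0.05 or less over 14175 tested genes. By this rule 36.4% of all tested genes were called, 18.9% higher and 17.4% lower, and 3 of the 8 tested members is a share close to that background. The median log2 fold change was -0.06 over the 8 tested members and 0.01 over all tested genes. Without horse serum library 6, Ogn joined Aspn among the members that fell, giving 4 of 8 beside 50.8% of all tested genes.

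**Figure D1:**
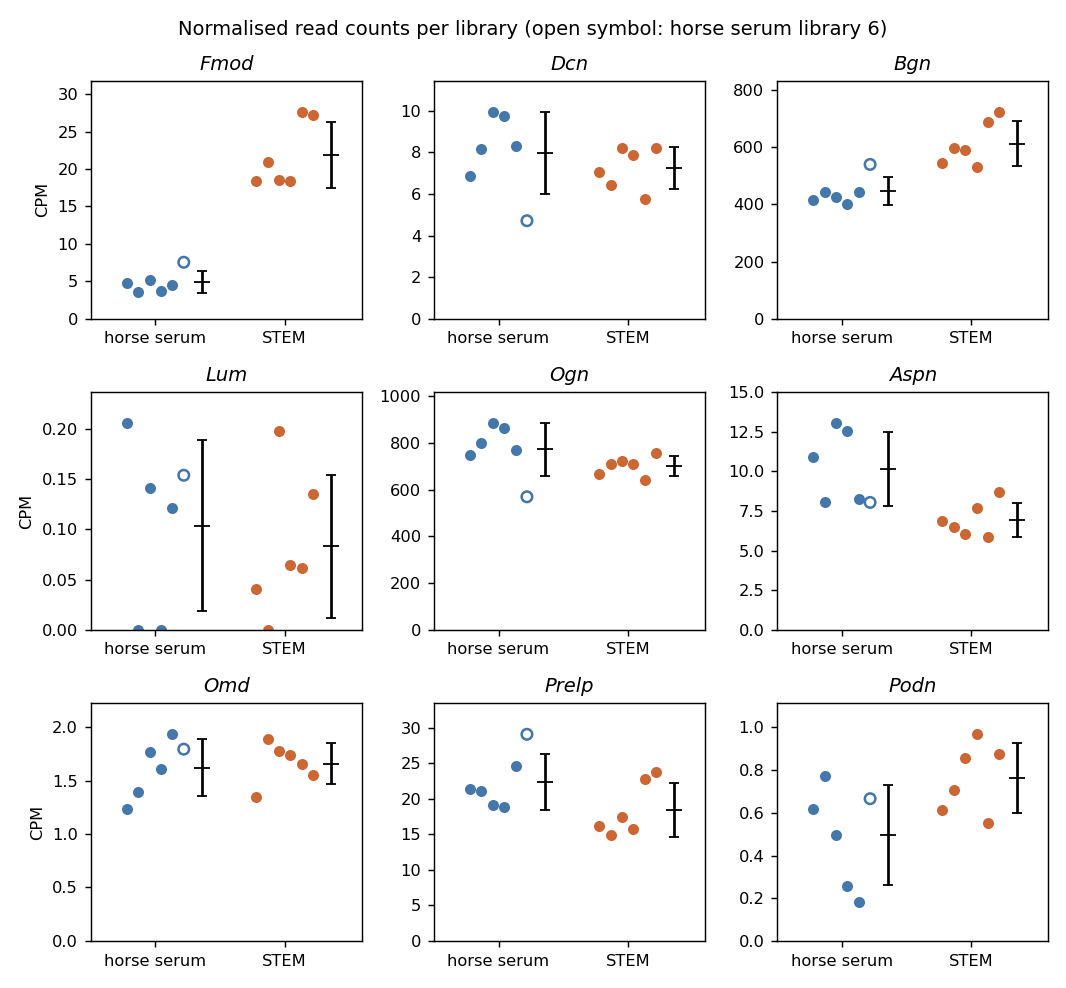
Expression of the 9 members in each library, as CPM on a linear axis from 0 with a scale of its own for each gene, for 6 horse serum and 6 STEM libraries. Points are libraries, the open symbol is horse serum library 6, and the black dash and bar are the group mean ± SD. The Fmod groups do not overlap, whereas Bgn and Aspn each overlap through 1 library of a group and the remaining members overlap more widely.

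Fibromodulin, a keratan sulfate proteoglycan that binds collagen and brings lysyl oxidase to it, showed the largest change of the members. Fmod (ENSMUSG00000041559, GRCm38 chromosome 1, 134037254 to 134048277, plus strand) had a lowest value of 3.55, a median of 4.63 and a highest value of 7.53 CPM among the horse serum libraries. With STEM the lowest was 18.4, the median 19.7 and the highest 27.6 CPM. Every STEM library was above every horse serum library, with the highest horse serum value in library 6 and the highest STEM values in libraries 11 and 12. The mean went from 4.87 ± 1.44 (SD, n = 6) to 21.8 ± 4.42 CPM (SD, n = 6). The log2 fold change was 2.14 (SE 0.18, 95% interval 1.75 to 2.54, edgeR adjusted p = 1.01e-06). Without library 6 it was 2.32. These values rest on 46 to 147 counts per horse serum library and 281 to 451 per STEM library. Fmod was the only tested member whose groups did not overlap in CPM, a pattern found in 17.2% of all tested genes.

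Biglycan carries chondroitin or dermatan sulfate chains and is known to bind the dystrophin-associated protein complex in muscle. Bgn (ENSMUSG00000031375, chromosome X, 73483602 to 73495933, plus strand) ranged from 403 to 540.2 CPM with horse serum, with a median of 434, and from 531 to 724 CPM with STEM, with a median of 594. In 5 of 6 STEM libraries it was above every horse serum library, and the overlap came from horse serum library 6, the highest control. Without that library the highest horse serum value was 445 CPM and the groups did not overlap. The mean went from 446 ± 48.9 to 613 ± 78.1 CPM (SD, n = 6 each). The log2 fold change was 0.46 (SE 0.09, 95% interval 0.27 to 0.65, edgeR adjusted p = 7.98e-04), or 0.52 without library 6.

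Asporin, a member of the decorin class named for a run of aspartate residues, binds collagen and TGF-beta. Aspn (ENSMUSG00000021388, chromosome 13, 49544443 to 49567565, plus strand) had a lowest value of 8.05, a median of 9.59 and a highest value of 13.1 CPM with horse serum. With STEM these were 5.88, 6.69 and 8.69 CPM. In 5 of 6 STEM libraries it was below every horse serum library, while STEM library 12, the highest of its group, lay within the horse serum range. The mean went from 10.2 ± 2.32 to 6.94 ± 1.07 CPM (SD, n = 6 each). The log2 fold change was -0.55 (SE 0.15, 95% interval -0.87 to -0.22, edgeR adjusted p = 0.00879), and -0.61 without horse serum library 6. Aspn shares 7 exon bases with Cenpp, a centromere protein gene on the opposite strand whose mean CPM was 8.98 in the horse serum group and 8.03 in the STEM group. Whether the counting used the strand is not given in the sources used here.

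The bases just upstream of these 3 called genes are shown as a description, and a link between them and the direction of change was not tested. Each run is the 250 bases before the RefSeq transcription start in GRCm38.p6, on the strand of the gene, with matches to the searched motifs in capitals. The motifs were TATAAA, the E-box CANNTG bound by myogenic factors, TGANTCA bound by AP-1, and CAGACA, a core of SMAD sites, on both strands.
Fmod, chr1:134037004-134037253, plus strand: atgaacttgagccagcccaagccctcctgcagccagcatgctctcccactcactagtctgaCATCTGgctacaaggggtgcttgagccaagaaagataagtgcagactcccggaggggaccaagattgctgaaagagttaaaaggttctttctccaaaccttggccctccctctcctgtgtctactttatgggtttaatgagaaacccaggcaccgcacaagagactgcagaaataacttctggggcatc
Bgn, chrX:73483351-73483600, plus strand: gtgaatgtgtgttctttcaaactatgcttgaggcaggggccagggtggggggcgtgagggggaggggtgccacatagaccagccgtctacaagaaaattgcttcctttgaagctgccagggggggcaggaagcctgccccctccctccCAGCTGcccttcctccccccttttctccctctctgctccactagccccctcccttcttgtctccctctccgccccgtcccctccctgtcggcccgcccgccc
Aspn, chr13:49544193-49544442, plus strand: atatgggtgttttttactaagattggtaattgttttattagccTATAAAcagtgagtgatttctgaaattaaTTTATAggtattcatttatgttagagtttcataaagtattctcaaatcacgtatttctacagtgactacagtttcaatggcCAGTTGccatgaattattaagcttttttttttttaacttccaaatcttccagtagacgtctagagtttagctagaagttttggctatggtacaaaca

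Each of the 3 windows held 1 E-box, starting 189 bases before the start in Fmod, 102 in Bgn and 97 in Aspn, and an E-box was present in 66.2% of 32851 promoter windows of this length. Only Aspn of these 3 held TATAAA, with 2 matches that start 178 and 207 bases upstream, a motif found in 12.4% of windows. TGANTCA, found in 6.75% of windows, and CAGACA, found in 17.1%, had no match in these windows or in those of Ogn, Omd, Podn and Prelp. For the Ogn window alone, the bases after the start did not match an annotated transcript of the gene. The GC content of the window was 51.2% for Fmod, 64.4% for Bgn and 30.0% for Aspn, against a median of 52.4% over all promoters. These matches describe letters in a window only. The RefSeq table held promoters for 7 of the 9 members, the others being Dcn and Lum.

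Osteoglycin, also called mimecan, had the highest mean CPM of the members in both groups. In STEM library 11 Bgn was higher, at 690 against 642 CPM for Ogn. Ogn (ENSMUSG00000021390, chromosome 13, 49608046 to 49624501, plus strand) had a lowest value of 569.8, a median of 786 and a highest value of 885 CPM with horse serum, and 642, 709 and 759 CPM with STEM. The lowest horse serum value was that of library 6, below every STEM library, while the other 5 horse serum libraries were at 749.9 CPM or more. The mean went from 774 ± 113 to 701 ± 41.3 CPM (SD, n = 6 each), and the log2 fold change of -0.14 (SE 0.09, 95% interval -0.34 to 0.05) did not pass the edgeR test (adjusted p = 0.219). Without library 6 the log2 fold change was -0.22 (SE 0.05, edgeR adjusted p = 0.00189), which passed.

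Decorin, the best known member of the family and a ligand of TGF-beta and of several receptor tyrosine kinases, was low in these cells. Dcn (ENSMUSG00000019929, chromosome 10, 97479609 to 97518143, plus strand) had a lowest value of 4.71, a median of 8.26 and a highest value of 9.95 CPM with horse serum, and 5.75, 7.46 and 8.22 CPM with STEM. The ranges overlapped almost wholly, and library 6 held the lowest horse serum value. The log2 fold change of -0.13 (SE 0.16, 95% interval -0.49 to 0.23, edgeR adjusted p = 0.552) did not pass, nor did that of -0.25 without library 6 (adjusted p = 0.0781).

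Prolargin, which binds collagen and heparan sulfate, had horse serum values of 18.8 to 29.1 CPM with a median of 21.2, and STEM values of 14.8 to 23.7 CPM with a median of 16.8. Prelp (ENSMUSG00000041577, chromosome 1, 133910304 to 133921414, minus strand) was below every horse serum library in 4 of 6 STEM libraries, and STEM libraries 11 and 12 were the high ones. The highest horse serum value was that of library 6. The log2 fold change of Prelp was -0.28 (SE 0.14, 95% interval -0.59 to 0.02, edgeR adjusted p = 0.121). Without horse serum library 6 it was -0.19 (edgeR adjusted p = 0.225), and without STEM library 12 it was -0.37 and passed the test (edgeR adjusted p = 0.0461). Prelp shares 350 exon bases with the antisense gene Gm15851, which had 0 or 1 count in every library. In the same 2 STEM libraries Fmod and Bgn were also at their highest.

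Osteomodulin, a keratan sulfate proteoglycan best known from bone, was scarce and had similar values in both media. Omd (ENSMUSG00000048368, chromosome 13, 49582462 to 49592822, plus strand) ranged from 1.23 to 1.93 CPM with horse serum, with a median of 1.69, and from 1.35 to 1.88 CPM with STEM, with a median of 1.70. With 18 to 35 counts per library the log2 fold change was 0.02 (SE 0.16, edgeR adjusted p = 0.989), and its 95% interval ran from -0.33 to 0.36. Without library 6 it was 0.05 (edgeR adjusted p = 0.891).

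Podocan, known from kidney and vessel walls, was near the lower limit of detection. Podn (ENSMUSG00000028600, chromosome 4, 108014791 to 108096445, minus strand) had 3 to 13 counts per horse serum library and 9 to 15 per STEM library, or 0.18 to 0.77 and 0.55 to 0.97 CPM. Its log2 fold change of 0.60 had a wide 95% interval of -0.08 to 1.28 and did not pass the edgeR test (adjusted p = 0.139), nor did that of 0.73 without library 6 (adjusted p = 0.0725).

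Lumican, which regulates fibril spacing in the cornea, was the one member at the floor. Lum (ENSMUSG00000036446, chromosome 10, 97565128 to 97572703, plus strand) had 0 to 3 counts in every library, 10 counts summed over the horse serum group and 8 over the STEM group. No difference was detectable at this depth (two-sided exact permutation test on CPM, p = 0.626, where the smallest p that 6 against 6 libraries allow is 0.00216). A floor of 3 counts per library covers counting error only.

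**Figure D2:**
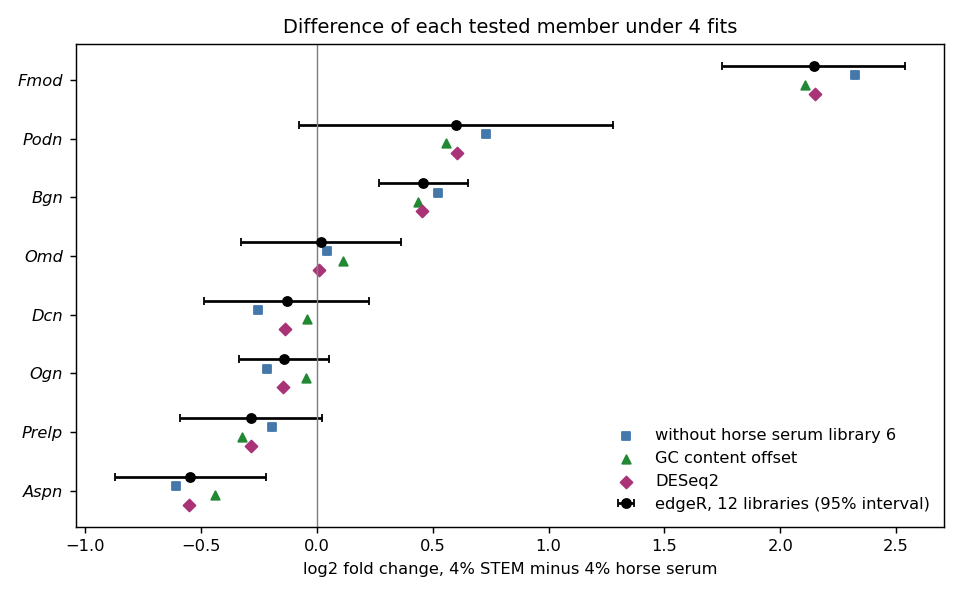
Log2 fold change of each tested member, STEM over horse serum, with black points and bars for the edgeR estimate and its 95% interval over 12 libraries. Blue squares leave out horse serum library 6, green triangles add the GC content offset and purple diamonds are DESeq2 estimates. The intervals of Fmod, Bgn and Aspn lie away from 0, and those of the other 5 tested members cross it.

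Compared per kilobase of merged exons, which allows for transcript length, expression spanned several orders of magnitude and was held by a pair of genes. Merged exons pool all annotated transcripts of a gene, 6099 bases for Bgn and 2566 for Ogn. The order and the shares on this scale therefore depend on the annotation. With horse serum Ogn stood at 301 CPM per kb and Bgn at 73.1, followed by Prelp at 6.18, Aspn at 4.31, Fmod at 1.47, Dcn at 1.36, Omd at 0.72, Podn at 0.12 and Lum at 0.042. Neighbors in this order whose library ranges overlapped were Prelp and Aspn, Fmod and Dcn, Dcn and Omd, and Podn and Lum. With STEM the order was Ogn at 273 CPM per kb, Bgn at 100.5, Fmod at 6.61, Prelp at 5.10, Aspn at 2.95, Dcn at 1.24, Omd at 0.74, Podn at 0.18 and Lum at 0.034, and the only overlapping neighbors were Fmod and Prelp. Fmod thus moved above Prelp and Aspn in the order of the members. Among the 14175 tested genes ranked by CPM per kb it went from place 10917 to 6135, Bgn from 656 to 474, Aspn from 7655 to 8973 and Ogn from 138 to 152.

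The summed level of the 9 members was 389 ± 36.6 CPM per kb with horse serum and 391 ± 24.2 with STEM (SD, n = 6 each), with ranges of 326 to 430 and 364 to 435. Within that sum Ogn held 77.2% ± 4.65 with horse serum and 70.0% ± 2.77 with STEM, and Bgn 19.1% ± 4.12 and 25.7% ± 2.36. Fmod held 0.39% ± 0.16 with horse serum and 1.69% ± 0.29 with STEM. In horse serum library 6 the share of Ogn was 68.1% and that of Bgn 27.2%, both inside the STEM ranges of 65.4% to 72.9% and 23.0% to 29.6%. The other 5 horse serum libraries held 77.5% to 80.8% Ogn and 15.8% to 18.8% Bgn, outside those ranges.

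**Figure D3:**
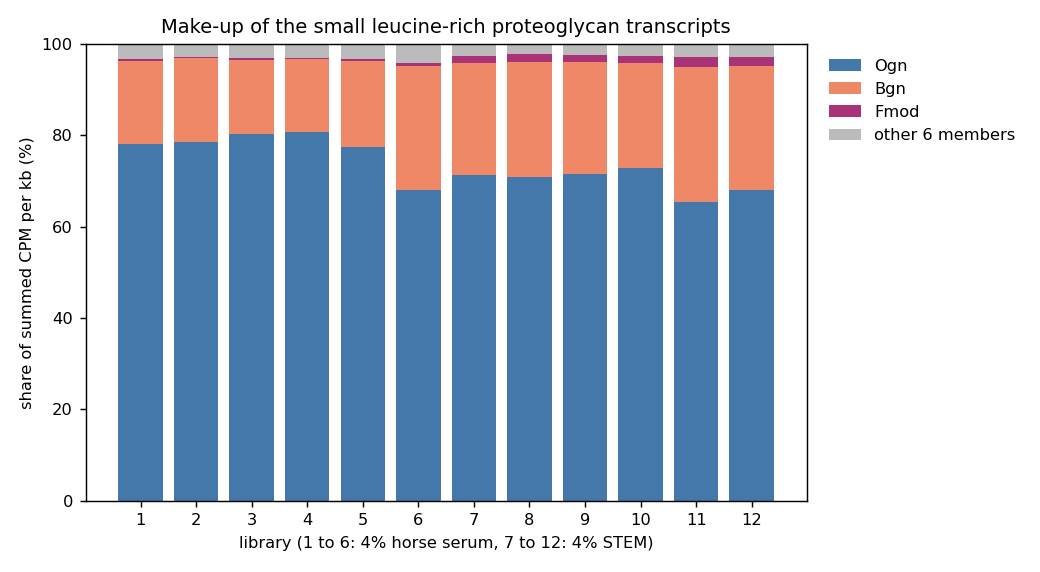
Stacked bars of the share of the members' summed CPM per kb, in percent, in each of 12 libraries, for Ogn (blue), Bgn (orange), Fmod (purple) and the other 6 members together (grey). Ogn takes 68.1% to 80.8% of the sum in the horse serum libraries and 65.4% to 72.9% in the STEM libraries, and horse serum library 6 resembles the STEM libraries in its Ogn and Bgn shares.

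Most members lie next to one another in the genome, which allows neighbors to be compared within the same libraries. On chromosome 1 Prelp is 115839 bases from Fmod and 2304 bases from Optc, the opticin gene. On chromosome 10 Dcn, Lum, Kera and Epyc follow one another with gaps of 46984, 34175 and 30375 bases. On chromosome 13 Ecm2, Aspn, Omd and Ogn follow with gaps of 11653, 14896 and 15223 bases, and no protein-coding gene lay wholly within any of these gaps. Cenpp, on the opposite strand, overlaps Aspn, Omd and Ogn and so crosses the gaps between them. Along chromosome 1 the calls were Optc higher, Prelp not called and Fmod higher, and along chromosome 13 only Aspn of the 4 genes was called, joined by Ogn without horse serum library 6.

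The log2 ratio of a pair of members within a library was compared between groups for 6 pairs, by a two-sided exact permutation test adjusted over the 6. The neighbors Fmod and Prelp responded unequally, their log2 ratio of counts going from -2.22 ± 0.27 with horse serum to 0.25 ± 0.14 with STEM (SD, n = 6 each), a difference of 2.46 without overlap (exact adjusted p = 0.00649). In the decorin class, Bgn over Aspn went from 5.48 ± 0.44 to 6.46 ± 0.26, a difference of 0.99 without overlap (exact adjusted p = 0.00649). Both are at the smallest raw p the design allows, and without horse serum library 6 they were 2.52 and 1.10 (exact adjusted p = 0.00866 for each). On chromosome 13, Ogn over Aspn differed by 0.40 (exact adjusted p = 0.0390) and Omd over Aspn by 0.57 (exact adjusted p = 0.0422), with overlapping groups. The former lost its call when horse serum library 1, 3 or 4 or STEM library 8, 9 or 11 was left out (0.35 to 0.38), and the latter when horse serum library 1, 2, 3 or 4 or STEM library 8, 9, 10 or 11 was left out (0.47 to 0.59). Without horse serum library 6 they were 0.37 (exact adjusted p = 0.0468) and 0.66 (exact adjusted p = 0.0325). Dcn over Bgn differed by -0.56 and missed the threshold (exact adjusted p = 0.0623), and without horse serum library 6 it was -0.76 (exact adjusted p = 0.00866). Ogn over Omd differed by -0.17 (exact adjusted p = 0.320), and by -0.28 without library 6 (exact adjusted p = 0.0476).

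**Figure D4:**
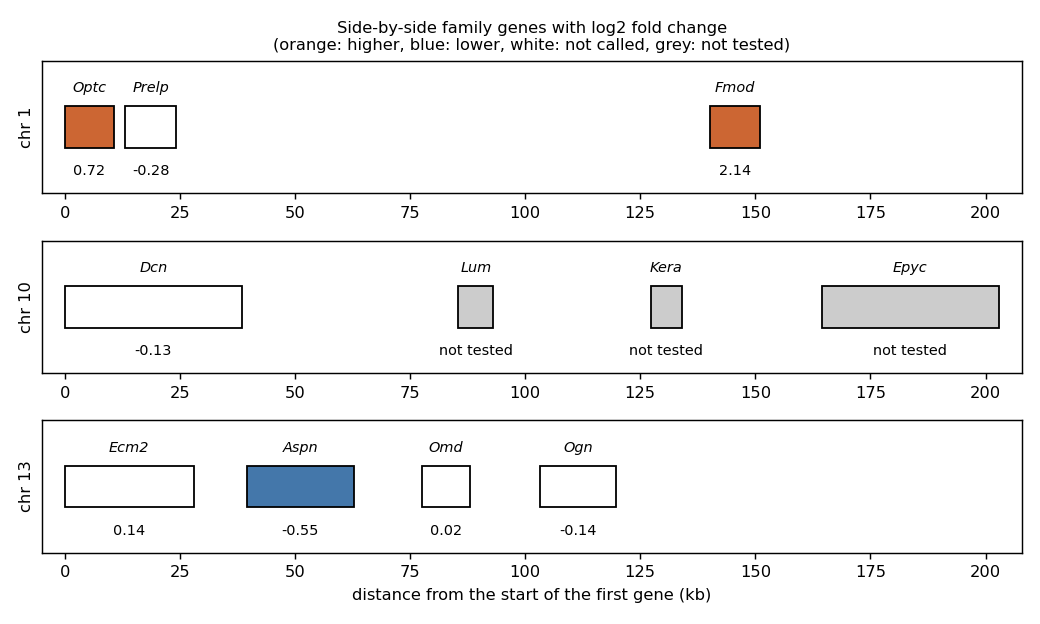
Order of the small leucine-rich proteoglycan genes along chromosomes 1, 10 and 13, drawn as boxes against distance in kilobases from the start of the first gene, with the log2 fold change of each gene below its box. Orange marks genes called higher with STEM, blue called lower, white not called and grey not tested, and called genes stand beside genes that were not called on chromosomes 1 and 13.

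The members differ in base composition, and this moved with the groups. The GC content of the longest annotated transcript was 53.7% for Fmod, 51.2% for Bgn, 53.8% for Prelp and 56.3% for Podn. It was 34.4% to 41.9% for Dcn, Lum, Ogn, Aspn and Omd. The difference between the highest and the lowest GC decile of all genes, on the log2 scale, was -0.104 to 0.006 in the horse serum libraries and 0.014 to 0.130 in the STEM libraries. With an offset for GC content, an alternative added after the data were seen, the same 3 members were called, at log2 fold changes of 2.11 for Fmod, 0.43 for Bgn and -0.44 for Aspn (edgeR adjusted p = 0.0290 for Aspn). Ogn then stood at -0.05 (edgeR adjusted p = 0.687).

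The counts in the 8 lists of related genes stand beside 18.9% of all tested genes called higher and 17.4% called lower, and beside a median log2 fold change of 0.01 over all tested genes. Over these lists 44 of 71 tested genes were called, or 62.0%, where the share of all tested genes was 36.4%. Without horse serum library 6 they were 54 of 71, or 76.1%, where that share was 50.8%. All 44 were called in the same direction without that library, at 0.822 to 1.397 times the log2 fold change. Most genes gained without it were called higher, and they are named with their lists below.

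Among the other genes of the family, Tsku and Optc rose and none fell, among 5 tested of 9 listed, with a median log2 fold change of 0.38. Tsku (tsukushi, an inhibitor of BMP and other secreted signals) went from 10.3 ± 1.89 to 16.6 ± 1.39 CPM (SD, n = 6 each) at a log2 fold change of 0.68 (edgeR adjusted p = 2.01e-04), and its groups did not overlap. Optc (opticin, first known from the vitreous of the eye) went from 0.73 ± 0.25 to 1.20 ± 0.27 CPM, a log2 fold change of 0.72 (edgeR adjusted p = 0.0287). It rests on only 7 to 16 counts per horse serum library and 16 to 27 per STEM library, and its groups overlapped. Only 2 of 6 STEM libraries were above every horse serum library. The uncalled Podnl1 was the most abundant of these family genes, at 99.3 ± 6.89 and 99.2 ± 3.44 CPM, while Kera, Epyc and Chad had no count, which allows up to 3 counts per library.

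The enzymes that build the chondroitin and dermatan sulfate chains were called higher more often than lower. Of 22 listed genes 20 were tested, 10 rose and 2 fell, with a median log2 fold change of 0.20. Chpf, a chondroitin polymerizing factor, rose by 0.81 (36.6 ± 7.17 to 64.6 ± 2.51 CPM), Csgalnact1, which starts the chondroitin chain, by 0.72, and Chsy1, a chondroitin synthase, by 0.52. Chst15, which adds a further sulfate to the chain, fell by 0.71 (46.8 ± 6.54 to 28.6 ± 1.97 CPM). Leaving out horse serum library 6 added Ust (0.48) and Chst14 (0.21) to the genes called higher and Chst13 (-0.36) to those called lower. Of 8 keratan sulfate genes 7 were tested, with Fut8 higher (0.36) and Chst5 (-1.21) and B4galt4 (-0.43) lower, and a median of 0.05. The value of Chst5 rests on only 7 to 17 counts per horse serum library and 2 to 10 per STEM library. Leaving out horse serum library 6 added Chst2 (0.52) and B4galt1 (0.33) to the keratan sulfate genes called higher. Of 7 genes that supply activated sulfate and UDP sugars, 3 rose and 3 fell, with a median of 0.01. The sulfate activating enzyme Papss1 stood at -0.30 and Papss2 at 0.59, and the transporters Slc35b2, which carries activated sulfate into the Golgi, at -0.18 and Slc26a2, which brings sulfate into the cell, at 0.42.

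Among collagen chains whose fibrils or filaments these proteoglycans bind, 5 of 10 rose and 2 fell, with a median log2 fold change of 0.43. Col1a2 was called higher as well without horse serum library 6 (0.23). Col6a2, of the beaded filaments to which biglycan and decorin bind, went from 153 ± 20.0 to 381 ± 20.2 CPM (1.32, edgeR adjusted p = 1.81e-08), and Col14a1, a fibril-associated chain, from 24.5 ± 5.07 to 2.75 ± 0.49 CPM (-3.14, edgeR adjusted p = 1.50e-08). Of 16 growth factors and receptors that bind decorin, biglycan or relatives, 13 were tested, 4 rose and 4 fell. Tgfb2 rose by 0.86 and Bmp4 fell by 0.96 on the log2 scale, while the median of the list was 0.05. Ccn4 was called higher as well without horse serum library 6 (0.53).

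Of 11 proteases that process or cleave these proteoglycans, 7 were tested, 2 rose and 2 fell, with a median of 0.27. This balance depended on horse serum library 6, without which Mmp14 (0.47), Pcolce (0.23) and Tll1 (0.87) were called higher as well. Bmp1, which removes the propeptide of biglycan and also processes procollagen, rose from 159 ± 14.4 to 257 ± 5.35 CPM (0.69, edgeR adjusted p = 4.20e-07). Among enzymes that cut proteoglycans, Adamts4 rose by 0.97 and Adamts5 fell by 0.49 on the log2 scale. Of 8 large aggregating proteoglycans and link proteins only Vcan (versican, 0.93) and Hapln4 (1.04) were tested, and both rose (median 0.98).

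**Figure D5:**
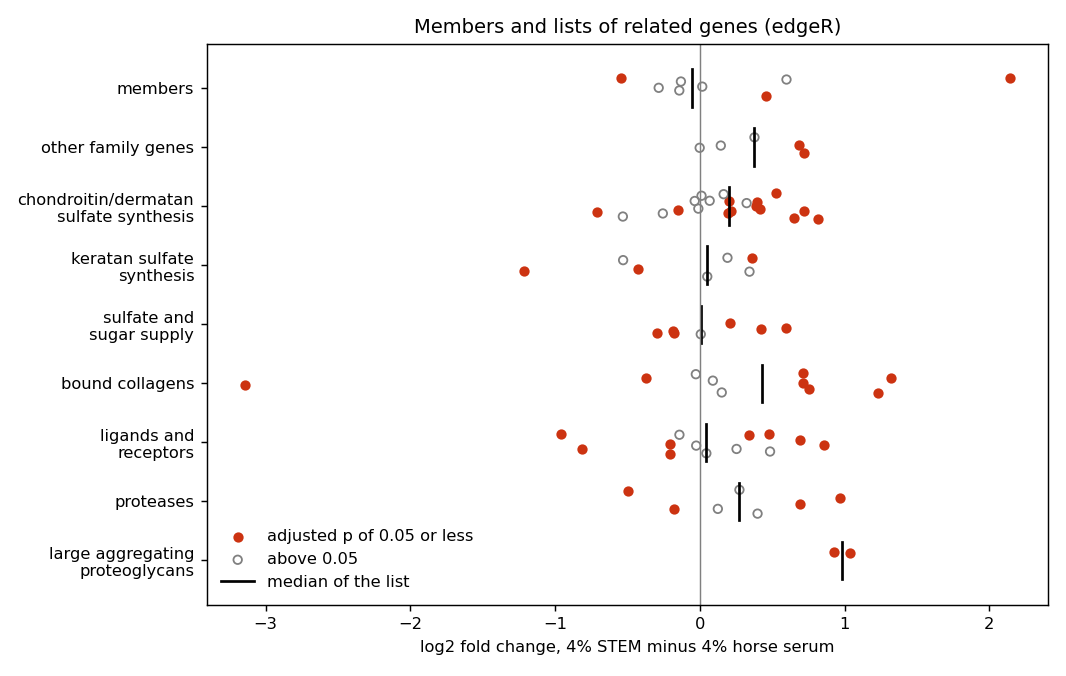
Log2 fold change, STEM over horse serum, of every tested gene in the member list and the 8 related lists. Filled red points are called genes, open points are genes that were not called, and the vertical bar is the list median, which is 0.20 for chondroitin and dermatan sulfate synthesis and 0.43 for the bound collagens.

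Markers of undifferentiated cells and of other cell types also moved, and their part in the results was not tested. Over all marker lists, myotube markers included, 14 of 29 tested genes were called (48.3%), beside 36.4% of all tested genes. Without horse serum library 6 they were 20 of 30 (66.7%), beside 50.8%. Of 5 markers of undifferentiated or reserve myoblasts all were tested, and Cd34 (-0.75) and Myf5 (-0.42) fell. Pax7 (-0.04), Myod1 (0.03) and Notch3 (0.42) were not called, but Notch3 was called higher without horse serum library 6 (0.58, edgeR adjusted p = 0.0253). The sums were 293 to 322 CPM with horse serum and 252 to 357 with STEM. Of 5 fibroblast and mesenchymal progenitor markers 4 were tested, and Pi16 (2.83) and Dpt (1.10) rose and Ly6a (-1.09) fell. Pdgfra (0.41) was not called, but was called higher without horse serum library 6 (0.67, edgeR adjusted p = 2.48e-06). The summed level was 38.0 to 52.8 CPM with horse serum and 41.1 to 44.3 with STEM, and Tcf21 was at the floor of 3 counts. Of 5 chondrocyte markers 2 were tested and both rose, Sox9 by 0.41 and Matn3 by 2.02, with sums of 6.92 to 11.6 and 11.5 to 17.0 CPM, and the defining Col2a1 and Matn1 were at the floor. Of 4 tenocyte markers 2 were tested, and Egr1 rose (0.94) while Scx (-0.12) was not called. The sums were 117 to 201 and 138 to 161 CPM, mostly from Scx, with means of 135 and 124 CPM. Mkx had 16 counts summed over the horse serum group and 1 over the STEM group, and Tnmd was at the floor. Of 5 osteoblast markers 1 was tested and none was called, with sums of 11.8 to 23.3 and 13.6 to 29.8 CPM and Ibsp at 0. Of 4 smooth muscle markers 2 of 3 tested rose, Cnn1 (0.91) and Acta2 (0.34), and the sums were 1800 to 2370 and 2363 to 2872 CPM. The macrophage markers Ptprc and Adgre1 were at the floor and none of that list was called, with sums of 2.05 to 4.797 and 4.04 to 5.48 CPM. Of 5 adipocyte markers 1 of 2 tested was called, Pparg (-0.84, lower), with sums of 35.5 to 48.4 and 27.1 to 31.98 CPM and Adipoq and Plin1 at the floor. Of 4 endothelial markers 1 was tested and none was called, with sums of 2.08 to 3.32 and 2.16 to 2.76 CPM and Pecam1 at the floor.

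By root mean square distance of centered log2 CPM over the 12 libraries, the genes most like Fmod were Kctd12 (0.257) and Cdh6 (0.286), where the median distance of all genes was 1.13. Those most like Bgn were Larp1 (0.061) and Carm1 (0.063), with a median of 0.327. For Aspn they were Ces2c (0.176) and Plekhf1 (0.182), with a median of 0.416.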

How the data were processed

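RNA was sequenced from 6 horse serum and 6 STEM libraries, grouped by their labels. The authors deposited raw counts of reads per Ensembl gene, without normalization, on GRCm38. The submitters' processing notes name STAR 2.7.3a, featureCounts 1.6.3 and DESeq2 1.26.0. The annotation release and strand setting of the counting are not given in the sources used here.

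All 12 libraries entered every comparison. The test was edgeR 4.0.16 (TMM, filterByExpr, robust glmQLFit, glmQLFTest) in R 4.3.3 with Benjamini-Hochberg adjustment over all 14175 tested genes. Intervals used the t distribution. CPM was scaled by TMM, and CPM per kb used merged exon lengths from GENCODE for GRCm38. Pair ratios added 0.5 to each count. Alternatives were DESeq2's size factors, library totals, no filter, at least 10 counts in every library, DESeq2 1.42.0, limma-voom (limma 3.58.1), a GC offset, 1 added to each count in pair ratios, and leaving out each library. On simulated counts of 14018 genes edgeR recovered 89 of 100 genes changed 2-fold and 95 of 100 changed 4-fold. Of its calls there, 5.15% were false. In the data 36.4% of tested genes were called, a far larger share than was changed in the simulation. These rates therefore describe the simulated counts only, and the share of false calls in the data was not tested.

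The text names all members and, from each other list, the 2 called genes with the lowest p, plus genes a count needs. Genes beyond that rule were named after their values were seen. Among them are Ckm, Acta1, Tnnt3, Pax7, Myod1, Notch3, Pdgfra, Scx, Mkx, Csgalnact1, Chsy1, Slc26a2, Papss2, B4galt4, Adamts4 and Podnl1. Members and lists were chosen with earlier results of these data known. Depth was 13285472 to 24536264 counts per library.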

Additional observations from a re-analysis of the deposited data

Results flagged for a closer look

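Of 18 groups of 6 libraries examined, 1 held a library far from the others. Bgn in horse serum library 6 was at 540.2 CPM, and its gap to the next highest horse serum library was 0.695 of the group's range, above the critical value of 0.625. Chance alone marks about 1 in 20 such groups. Bgn was called higher with STEM with this library (log2 fold change 0.46) and without it (0.52).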

How the results depend on the processing

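Of 318 recomputed values, 294 were held unchanged, and all exceptions came from leaving out 1 library. For fold changes and pair differences, unchanged meant the same direction and the same side of the threshold. For counts of called genes a modest shift also passed, with members called at 3 to 4 and related genes called at 39 to 54. The CPM difference of Lum has no threshold. Fmod stayed between 2.07 and 2.32, Bgn between 0.41 and 0.52 and Aspn between -0.62 and -0.44 on the log2 scale over all alternatives, each called in all of them. With a library left out, the members called lower ranged from 1 to 2 (2 without horse serum library 6 or STEM library 12), the log2 fold change of Ogn from -0.22 to -0.10, of Prelp from -0.37 to -0.19 and of Omd from -0.049 to 0.074. Omd was below 0 without horse serum library 1 (-0.049), horse serum library 2 (-0.02), STEM library 8 (-0.02) or STEM library 9 (-0.0028), and was not called in any alternative. The pair differences ranged from 0.35 to 0.47 for Ogn over Aspn, from 0.47 to 0.67 for Omd over Aspn, from -0.28 to -0.10 for Ogn over Omd and from -0.76 to -0.46 for Dcn over Bgn. The cause was not tested. Other scalings and filters moved the median of all tested genes by at most 0.024. No paired analysis was possible because the groups share no replicate numbers. Depth limits Lum and Podn most.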
